A study of Mus musculus with 8 samples.

Results

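Oligodendrocyte precursor cells are the glial cells that divide and mature into the myelin-forming oligodendrocytes of the brain. Here 8 of their genes were followed through 3 ages in small vessels prepared from the mouse forebrain. The genes Pdgfra, Olig1, Olig2, Sox10, Gpr17, Neu4, Ptprz1 and Vcan were taken by name, and every probe whose accession maps to them was used, which gave 11 of the 39429 probes on the array. Of these, 10 probes for 7 genes passed the filter on dim probes and entered the test over 27109 probes. The probe for Neu4 did not pass. To pass, a probe had to be well above background in all channels of some age, so a probe bright at a single age could enter through that age.

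The groups were microvessels of 5-day-old (P5), 10-day-old (P10) and adult mice, prepared from whole forebrain by homogenisation, sedimentation and a filter that passed particles below 70 µm. Strain, sex and the age of the adults are not given in the sources used here. RNA of a pair of ages, 1 in Cy5 and 1 in Cy3, was hybridised on each of 8 arrays, and each of 2 replicates filled a slide of 4 arrays: P5/adult, P10/adult, P10/adult with the dyes exchanged, and P5/P10. Neither the number of animals behind a replicate nor their separation is stated, so the p-values measure no more than the spread between the samples at hand, and that spread may be technical. The share of the 43020 non-control spots that stood well above background was 65.2% to 73.3% per channel. No probe of the 8 genes was saturated on any channel. The number of arrays limits the precision.

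In the postnatal forebrain, precursors spread through grey and white matter, keep dividing under platelet-derived growth factor, and many leave the cell cycle to become oligodendrocytes. Pdgfra is the receptor for that growth factor on precursors. Olig1, Olig2 and Sox10 are transcription factors of the lineage that persist as the cells mature, Gpr17 is a G-protein-coupled receptor of cells between the precursor and the myelinating stage, and Neu4 is a sialidase, an enzyme that removes sialic acid from glycoproteins and glycolipids. Ptprz1 is a receptor-type tyrosine phosphatase that carries chondroitin sulphate, and Vcan (versican) is a chondroitin sulphate proteoglycan of the matrix around these cells. Several of the 8 are not limited to this lineage: Pdgfra and Vcan are also genes of fibroblasts, and Ptprz1 is also a gene of astrocytes and radial glia.

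Windows were taken from the RefSeq promoter table (GRCm38.p6) for 5 of the 8 genes, namely Pdgfra, Olig2, Neu4, Ptprz1 and Vcan. No window was examined for the other genes. Each window ran from 250 bases before to 50 bases after the gene's start in the promoter table. RefSeq gene positions can place the start elsewhere. They run from 75151322 to 75198206 for Pdgfra and from 89655309 to 89743027 for Vcan, so both windows lie inside these genes. Windows of the 4 tested genes are printed because these genes were all higher at P5 than in adults; capitals mark a match to any of 4 letter strings searched on both strands. The strings were the E-box forms CAGCTG and CATCTG, of the kind bound by basic helix-loop-helix factors such as Olig1 and Olig2, and the core forms ACAAAG and ACAATG, of the kind bound by SOX factors such as Sox10; none of the 4 overlaps another in these windows.
Pdgfra, chr5:75152001-75152300, plus strand: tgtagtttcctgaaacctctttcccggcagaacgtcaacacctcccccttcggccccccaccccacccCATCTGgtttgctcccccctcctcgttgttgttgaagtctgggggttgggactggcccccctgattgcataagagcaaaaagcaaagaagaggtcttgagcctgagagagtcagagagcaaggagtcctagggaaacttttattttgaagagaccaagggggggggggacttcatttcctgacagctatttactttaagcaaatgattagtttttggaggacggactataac
Olig2, chr16:91225300-91225599, plus strand: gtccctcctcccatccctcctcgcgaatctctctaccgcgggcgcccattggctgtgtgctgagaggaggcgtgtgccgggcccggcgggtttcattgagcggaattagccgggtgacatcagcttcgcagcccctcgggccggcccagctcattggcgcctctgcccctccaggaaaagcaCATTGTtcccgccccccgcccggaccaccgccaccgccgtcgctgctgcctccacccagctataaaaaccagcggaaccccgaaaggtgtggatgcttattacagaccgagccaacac
Ptprz1, chr6:22875252-22875551, plus strand: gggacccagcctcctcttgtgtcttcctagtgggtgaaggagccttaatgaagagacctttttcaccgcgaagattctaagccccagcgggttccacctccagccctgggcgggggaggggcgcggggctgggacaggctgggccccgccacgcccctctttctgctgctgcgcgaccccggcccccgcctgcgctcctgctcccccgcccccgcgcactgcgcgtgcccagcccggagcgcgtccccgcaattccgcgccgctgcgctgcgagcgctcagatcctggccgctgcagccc
Vcan, chr13:89742463-89742762, minus strand: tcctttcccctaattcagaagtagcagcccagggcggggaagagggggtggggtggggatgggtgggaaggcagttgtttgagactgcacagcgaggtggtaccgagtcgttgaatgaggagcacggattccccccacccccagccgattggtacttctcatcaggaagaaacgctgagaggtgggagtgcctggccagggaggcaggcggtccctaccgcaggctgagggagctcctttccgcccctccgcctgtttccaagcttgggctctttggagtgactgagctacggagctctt
The Pdgfra window held CATCTG at position -182 from its start in the promoter table. The Olig2 window held ACAATG on its minus strand, printed as CATTGT, at position -68. None of the 4 strings was found in the windows of Ptprz1, Vcan or Neu4. Among all 32851 windows in the table, CAGCTG was found in 16.3%, CATCTG in 17.2%, ACAAAG in 18.7% and ACAATG in 12.6%, and 50.2% held at least 1 of the 4. Of the 5 windows taken for these genes, 2 held a match. No chromosome was left out of the shares over the table, so the 2 sets of windows were not chosen alike. In base composition the windows differed: G and C made up 71.7% of the Ptprz1 window, 65.0% of Olig2, 61.0% of Vcan and 51.0% of Pdgfra, beside a median of 52.7% over the table. The dinucleotide CG occurred 29 times in Ptprz1, 25 times in Olig2, 12 times in Vcan and 5 times in Pdgfra, beside a median of 7.

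Every tested gene of the 8 was higher at P5 than in adult microvessels. Of the 10 tested probes, 9 were well above background in all channels of every age, and these are counted here; the tenth, a dim Vcan probe, entered only through P5, where it was high, and is given apart. All 9 passed the test as higher at P5, against 28.1% of all probes tested, and their log2 ratios ran from 0.61 for Sox10 to 2.51 for Ptprz1. The median over the 9 probes was 1.83, beside 0.06 over all probes. At P10 against adult, 5 of the 9 probes were called higher, against 8.14% of all probes, and the median was 0.56 beside 0. Between P5 and P10, 8 of the 9 probes were called higher at P5, against 21.4% of all probes, and the median was 0.83 beside 0.03. A call is an adjusted p below 0.05 in limma with Benjamini-Hochberg adjustment over all probes tested. The 3 comparisons come from the same arrays and share their samples, so a high P5 value enters more than 1 of them. In RNA from a mixed preparation, fewer cells of a type and less RNA per cell cannot be told apart.

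**Figure D1:**
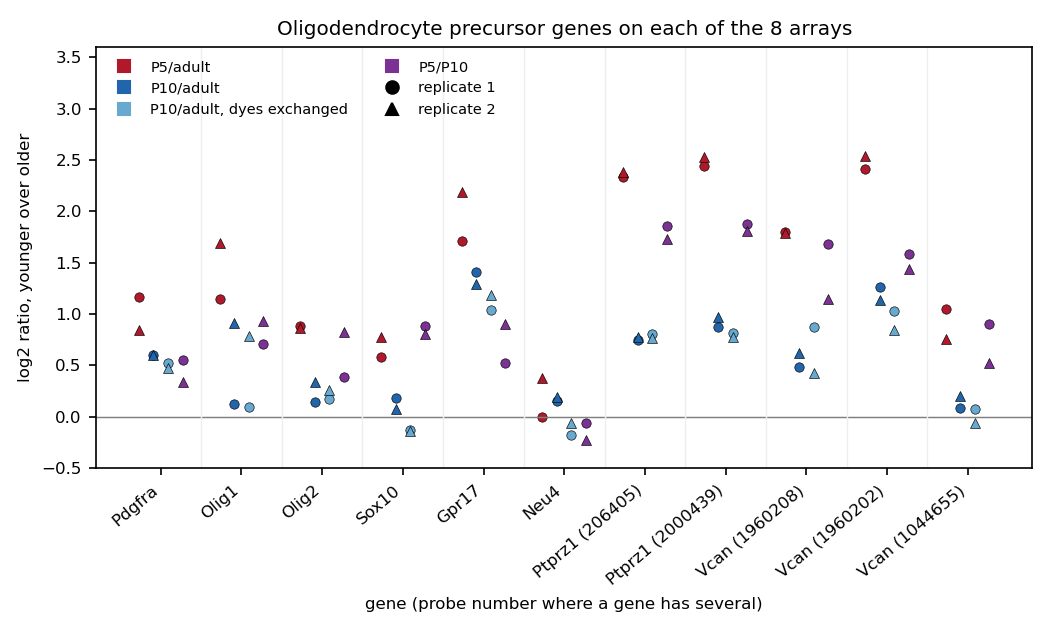
Log2 ratio of the younger over the older age (vertical axis) for each of the 11 probes (horizontal axis) on the 8 arrays, with circles for replicate 1, triangles for replicate 2 and colours for the array pairing. All red P5/adult points other than those of Neu4 lie at or above 0.58, and the P10/adult points of Sox10 lie on either side of 0.

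The channel levels told the same order. Each age was measured in several channels, 4 for P5 and 6 each for P10 and adult, after loess and scaling between arrays. For all 9 probes the lowest P5 level was above the highest adult level, which held for 28.3% of all probes tested. The lowest P5 level was also above the highest P10 level for all 9 probes, against 22.2% of all probes. Between P10 and adult the levels did not overlap for 8 of the 9 probes, against 11.9% of all probes; the exception was Sox10. Channels of 1 replicate share RNA, so these counts describe the arrays and are not counts of samples. P5 was always in Cy5, so comparisons of its levels are open to dye bias.

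Pdgfra, the growth factor receptor, was measured most densely, with 10 spots of its probe on each array. The P5/adult arrays gave log2 ratios of 1.16 and 0.84 in replicates 1 and 2. The P10/adult arrays gave 0.60 and 0.60, and the dye-exchanged ones 0.53 and 0.48. On the P5/P10 arrays the ratios were 0.55 and 0.34. All 8 ratios were above 0, and the spread among the 10 spots of an array (SD 0.05 to 0.08) was smaller than the gap between the replicates on the P5/adult arrays. Levels on the log2 scale were 10.53 to 10.78 at P5, 10.19 to 10.28 at P10 and 9.62 to 9.77 in adults, with no overlap.

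In the fit, Pdgfra was 1.93-fold higher at P5 than in adults (log2 ratio 0.95 ± 0.12 SE, 2 replicates, adjusted p = 0.00359). At P10 it was 1.47-fold higher than in adults (0.55 ± 0.12, adjusted p = 0.0394), a call lost in 8 of 18 alternatives, among them median centring (0.56, adjusted p = 0.181) and each of the 4 that left out a P10/adult array. The P5/P10 difference of 0.40 ± 0.12 did not pass (adjusted p = 0.052), and with arrays centred on their median in place of loess it turned to -0.13 (adjusted p = 0.612). Median centring also ended the P5/adult call for Pdgfra (0.43, adjusted p = 0.104).

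The other members of the platelet-derived growth factor family moved differently. Of 6 ligand and receptor genes, 1 was called higher at P5 than in adults and 3 lower, against 24% of all probes called lower, and their median log2 ratio was -0.64. Pdgfa, the main ligand of the alpha receptor, had a P5/adult value of -0.13 (adjusted p = 0.349) and a P10/adult value of 0.24 (adjusted p = 0.228). Pdgfb, the ligand through which endothelium recruits pericytes, was lower at P5 (-1.14 ± 0.14, adjusted p = 0.00309), and its receptor Pdgfrb, a pericyte gene, was lower as well (-1.35 ± 0.14, adjusted p = 0.00223). Pdgfd, a ligand of the beta receptor, was at -1.69 (adjusted p = 0.00126). Pdgfc, a further ligand of the alpha receptor, had 0.31 (adjusted p = 0.09). Pdgfrl, a receptor-like gene without a kinase, was the exception: it was higher at P5 (1.12, adjusted p = 0.00345) and higher still against adults at P10 (2.03, adjusted p = 0.00271).

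Among the transcription factors, Olig1 stood out by the distance between its replicates. On the P5/adult arrays its log2 ratios were 1.15 in replicate 1 and 1.69 in replicate 2. The P10/adult arrays read 0.13 and 0.09 in replicate 1, dyes exchanged in the latter, and 0.91 and 0.79 in replicate 2. Between P5 and P10 the ratios were 0.71 and 0.93. Replicate 2 thus had the larger lead over adults at both ages, while the P5/P10 ratios were alike. The fit gave 1.33 ± 0.19 for P5 against adult (2.52-fold, adjusted p = 0.00522) and 0.83 ± 0.19 for P5 against P10 (adjusted p = 0.0267). For P10 against adult it gave 0.50 ± 0.19, which did not pass (adjusted p = 0.151).

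Olig2 lies on chromosome 16 like Olig1. Its P5/adult ratios were 0.88 and 0.87, its P10/adult ratios 0.14 and 0.34, its dye-exchanged ratios 0.17 and 0.26, and its P5/P10 ratios 0.39 and 0.83. All 8 were above 0, and the log2 levels fell into separate ranges, 8.11 to 8.55 at P5, 7.66 to 7.76 at P10 and 7.42 to 7.57 in adults. Olig2 was 1.80-fold higher at P5 than in adults (0.85 ± 0.10, adjusted p = 0.00317) and higher at P5 than at P10 (0.61 ± 0.10, adjusted p = 0.0132). The P10/adult difference of 0.24 ± 0.10 did not pass (adjusted p = 0.19).

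Sox10 had the smallest P5/adult difference of the tested genes. Its P5/adult ratios were 0.58 and 0.78 and its P5/P10 ratios 0.89 and 0.80, while P10/adult gave 0.19 and 0.08 and, with dyes exchanged, -0.13 and -0.14. The sign of the P10/adult ratio thus followed the dye orientation in both replicates, and its P10 and adult levels overlapped (7.98 to 8.16 and 7.85 to 8.24). Sox10 was 1.53-fold higher at P5 than in adults (0.61 ± 0.10, adjusted p = 0.0067) and 1.57-fold higher at P5 than at P10 (0.65 ± 0.10, adjusted p = 0.0109). For P10 against adult the fit gave -0.03 ± 0.10 (adjusted p = 0.876). The P5/adult call ended without the dye-exchanged array of replicate 1 (0.38, adjusted p = 0.142), under median centring (0.47, adjusted p = 0.0762), with background correction fitted on all spots (0.51, adjusted p = 0.0587) and without the 2 arrays with faulty backgrounds (0.38, adjusted p = 0.147).

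Of 13 measured transcription factors that act beside these in glial cells, 5 were called higher and 6 lower at P5 against adult, with a median of -0.12; over all probes tested, 28.1% were called higher and 24% lower, which is the background for every list at P5 against adult. Hes5, a Notch target of neural progenitors, was higher (1.71 ± 0.13, adjusted p = 0.00106), and so was Sox5, a SOX factor of precursors (1.68 ± 0.32, adjusted p = 0.0115). Hes1, a related Notch target also present in endothelium, was lower (-1.34 ± 0.11, adjusted p = 0.00124). Nkx6-2, a homeobox factor of mature oligodendrocytes, was not well above background in any P5 channel and was at least 1.91-fold higher in adults than at P5 (adjusted p = 0.0026).

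Gpr17, the receptor of the intermediate stage, had the highest P10/adult values of the 8 genes. Its P5/adult ratios were 1.71 and 2.19. At P10 against adult the ratios were 1.41 and 1.30, and with dyes exchanged 1.04 and 1.18. The P5/P10 arrays gave 0.52 and 0.91. Every array showed the younger age higher, and the log2 levels were apart, with 11.80 to 12.12 at P5, 11.21 to 11.62 at P10 and 9.91 to 10.58 in adults. Gpr17 was 3.55-fold higher at P5 than in adults (1.83 ± 0.17, adjusted p = 0.00174) and 2.35-fold higher at P10 than in adults (1.23 ± 0.17, adjusted p = 0.0134). The P5/P10 difference of 0.59 ± 0.17 just passed (adjusted p = 0.0461, 0.32 and 0.87 in the replicates). Under median centring it turned to -0.02 (adjusted p = 0.96), and it was called in 8 of 18 alternatives.

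The receptors nearest to Gpr17 in family are those for purines and cysteinyl leukotrienes. Of 7, none was called higher and 4 were called lower at P5 than in adults, with a median of -0.94. P2ry2, a nucleotide receptor, was lower at P5 (-1.49, adjusted p = 0.00196). Cysltr2, a cysteinyl leukotriene receptor, was not well above background in any P5 channel, against 6 of 6 adult channels, and was called lower at P5 (adjusted p = 0.000533). The other 3 had values above 0 that did not pass: P2ry12, a microglial receptor, had 0.83 (-0.05 and 1.72 in the replicates, adjusted p = 0.165), P2ry6 had 0.31 (adjusted p = 0.378) and P2ry13 had 0.27 (adjusted p = 0.489).

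Neu4 was too dim to test. Its probe was well above background in 1 of 4 P5 channels, 3 of 6 P10 channels and 1 of 6 adult channels. The log2 levels lay between 6.09 and 6.40 at P5, 6.15 and 6.45 at P10 and 6.02 and 6.51 in adults, so the ages overlapped. Its array ratios ran from -0.23 to 0.38 with both signs at P10 against adult, where they followed the dye orientation. No fold is given, since most channels hold only an upper bound. Among 5 measured genes of sialic acid turnover, 1 was called higher and 2 lower at P5 against adult. St8sia2, a polysialyltransferase of the developing brain, was higher (1.05 ± 0.13, adjusted p = 0.00367), while the second such enzyme, St8sia4, was lower (-1.33 ± 0.12, adjusted p = 0.00155), as was the sialidase Neu3 (-0.89, adjusted p = 0.00957). The lysosomal sialidase Neu1 had 0.08 (adjusted p = 0.513).

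Ptprz1, the receptor phosphatase, had the largest P5/adult difference of the tested genes. Its first probe (A_51_P206405) had P5/adult ratios of 2.34 and 2.39, P10/adult ratios of 0.75 and 0.77, dye-exchanged ratios of 0.81 and 0.77, and P5/P10 ratios of 1.85 and 1.73. The second (A_55_P2000439) had 2.44 and 2.53 for P5/adult, 0.87 and 0.98 for P10/adult, 0.82 and 0.78 with dyes exchanged, and 1.88 and 1.81 for P5/P10. Both probes match the same transcript accession, and in the fitted values they differed by 0.04 to 0.10 in every replicate and age.

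In the fit, the probes of Ptprz1 were 5.50-fold and 5.70-fold higher at P5 than in adults (2.46 ± 0.10 and 2.51 ± 0.10, adjusted p = 0.000461 for each). At P10 they were 1.66-fold and 1.76-fold higher than in adults (0.73 and 0.82, adjusted p = 0.0112 and 0.0087). From P5 to P10 the difference was 1.72 and 1.69 (adjusted p = 0.00351 for each). Ptprz1 alone among the tested genes had a P10 level below the midpoint of P5 and adult that passed the test, by -0.49 ± 0.08 and -0.44 ± 0.08 (adjusted p = 0.0295 and 0.0378); 2 of the 10 probes were called lower in this contrast, against 5.53% of all probes. Both calls ended under median centring (-0.12 and -0.08, adjusted p = 0.718 and 0.793) and when any 1 of the 4 P10/adult arrays other than the replicate 2 array with the original dyes was left out.

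The ligands and partners of Ptprz1 were measured with 6 genes, of which 3 were called higher and 1 lower at P5 against adult. Mdk (midkine), a growth factor that binds Ptprz1, was higher by 1.58 ± 0.13 at P5 (adjusted p = 0.00124) and by 0.98 at P10 (adjusted p = 0.0114), each against adult. The 2 probes of Mdk ran from 0.89 to 1.58 at P5. Ptn (pleiotrophin), its close relative and fellow ligand, had 0.14 at P5 (adjusted p = 0.389) and -0.19 at P10 (adjusted p = 0.369). Ncam1, an adhesion molecule, had 2.93 (adjusted p = 0.000747) at its brightest probe, although its 3 probes ran from 0.24 to 2.93. Ptprg, the phosphatase most like Ptprz1, was lower (-1.66 ± 0.12, adjusted p = 0.000915).

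Vcan, the matrix proteoglycan, was covered by 3 probes that agreed in direction but not in size. The probe A_55_P1960208 had P5/adult ratios of 1.80 and 1.79, P10/adult ratios of 0.49 and 0.62, dye-exchanged ratios of 0.87 and 0.43, and P5/P10 ratios of 1.69 and 1.15. The probe A_55_P1960202, on another transcript accession, had 2.42 and 2.54, then 1.27 and 1.14, then 1.03 and 0.85, and 1.58 and 1.44 in the same order. The dim probe A_52_P1044655 had 1.05 and 0.75, then 0.09 and 0.20, then 0.08 and -0.06, and 0.90 and 0.52. The younger age was higher on every array except for 1 value of the dim probe, and the levels of the other probes did not overlap between any ages.

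At P5 against adult, the fit gave 1.93 ± 0.17 (3.81-fold, 2.21 and 1.64 in the replicates, adjusted p = 0.0015) for A_55_P1960208 and 2.39 ± 0.10 (5.23-fold, 2.42 and 2.35, adjusted p = 0.000461) for A_55_P1960202. For the dim probe it gave an adjusted p of 0.0114. Since that probe was not well above background in any adult channel, its fold is uncertain. A bound from the channel levels, which are open to dye bias, was 1.79-fold. The fit with its dye term gave 1.73-fold, below that bound, so 1.79-fold is not a firm lower limit. The dim probe was well above background in all 4 P5 channels and in 1 of 6 P10 channels. Its call ended with background correction fitted on all spots (0.66, adjusted p = 0.0811). At P10 against adult, A_55_P1960202 was called (1.05 ± 0.10, adjusted p = 0.0049) and A_55_P1960208 was not (0.56 ± 0.17, adjusted p = 0.0922). Both brighter probes were called higher at P5 than at P10, at 1.37 and 1.34 (adjusted p = 0.00759 and 0.0037); for the dim probe no P5/P10 difference is given, since 5 of its 6 P10 channels were not well above background.

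Other matrix genes of the same family went several ways. Of 13 measured lecticans, link proteins and partners, 5 were called higher and 3 lower at P5 against adult, with a median of 0.29. Ncan (neurocan), a lectican like Vcan, was higher at P5 (1.84 ± 0.12, adjusted p = 0.000881) and at P10 (1.23 ± 0.12, adjusted p = 0.00609). Tnc (tenascin C), a glycoprotein that binds lecticans, was higher at P5 (1.72 ± 0.18, adjusted p = 0.00221). Bcan (brevican), the lectican of the mature brain, was slightly higher at P5 (0.36 ± 0.11, adjusted p = 0.0403) and lower at P10 (-0.54 ± 0.11, adjusted p = 0.031), each against adult. The link proteins Hapln2 and Hapln4 were not well above background in any P5 channel, against 6 of 6 adult channels for each.

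**Figure D2:**
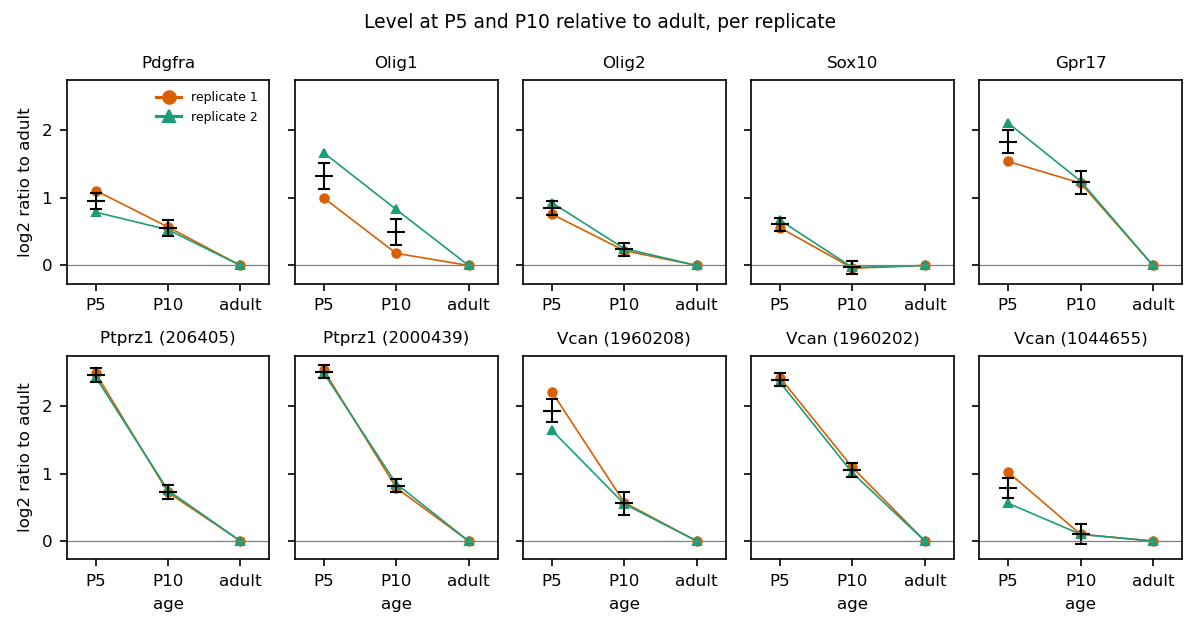
Log2 ratio to adult (vertical axis) at each age (horizontal axis) for the 10 tested probes, with lines for the replicates and black bars for the fitted value ± 1 SE; adult is 0 by construction. At P10 Sox10 is at -0.03 and Gpr17 at 1.23.

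The genes differed in when they came down. For each replicate, the fall from P5 to adult was split at P10, as a description with no test. The share lying between P5 and P10 was 106.6% and 104.2% for Sox10 in replicates 1 and 2, and 70.6% and 73.2% for Olig2. It was 71% and 69.2% for the first Ptprz1 probe and 74.5% and 66.7% for the brightest Vcan probe. The Vcan probe A_55_P1960202 had a smaller share, 55.2% and 56.9%. For Olig1 it was 82.4% and 50%. In Pdgfra the share was 48% and 32.8%, and in Gpr17 it was 20.9% and 41%, so these had the most of their fall after P10 in both replicates. Median centring, which put the P5 and P10 values of Pdgfra and Gpr17 at -0.13 and -0.02 apart, would leave none of their fall before P10.

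Likeness of pattern was measured as the distance over 4 log2 ratios (P5/adult and P10/adult in each replicate) at the brightest probe. Among the 7 tested genes themselves, Olig2 and Sox10 were closest (0.51), followed by Pdgfra and Olig2 (0.58) and by Ptprz1 and Vcan (0.87), and Sox10 and Ptprz1 were farthest apart (2.83). Over 15584 other named genes, the nearest to Gpr17 were Ncan (0.27) and Memo1 (0.28). The nearest to Ptprz1 were Camsap3 (0.16) and Rcor2 (0.20), and to Vcan they were Gm10413 (0.27) and Wdr90 (0.28). Pdgfra lay nearest to Naa40 (0.09) and Pigt (0.13), and Olig1 to Coro1a (0.19) and Arhgap4 (0.21). For Olig2 the nearest were Iqce (0.05) and Gm15217 (0.08), and for Sox10 Myo1a (0.04) and Plppr2 (0.08). Of these 14 neighbours, Ncan is the only gene in the lists of precursor and matrix genes used here.

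A further 13 genes of precursor cells were measured. Of these, 6 were called higher and 1 lower at P5 against adult, with a median of 0.26. At P10 against adult 2 were higher and 1 lower, with a median of 0.10, beside 8.14% and 9.04% of all probes. Lhfpl3, a membrane protein of precursors, was higher at P5 (1.74 ± 0.13, adjusted p = 0.00101) and at P10 (0.64 ± 0.13, adjusted p = 0.0327). Its 2 probes ran from 1.19 to 1.74 at P5. Pcdh15, a protocadherin of precursors, was higher at P5 (1.24 ± 0.15, adjusted p = 0.00299) and had 0.17 at P10 (adjusted p = 0.519). Among its 4 probes the P5 values ran from 0.46 to 1.24. Megf11, a precursor membrane protein, had -0.14 (adjusted p = 0.334).

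The single precursor gene called lower at P5 was Cspg4, which encodes the NG2 proteoglycan, is a classical precursor marker and is also a pericyte gene. It was at -0.56 ± 0.14 against adult (adjusted p = 0.0254) and -0.64 ± 0.14 against P10 (adjusted p = 0.0228). Of the 8 other pericyte markers measured, 7 were lower at P5 than in adults, with a median of -1.47, and their summed levels were 21500 to 26700 at P5, 52600 to 68100 at P10 and 85400 to 102000 in adults. The part of pericytes in the Cspg4 value was not tested.

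Genes of later stages were spread further. Of 13 measured genes of committed precursors, 6 were called higher and 3 lower at P5 against adult, with a median of -0.12 that turned to 0.02 under median centring and 0.15 under a stricter filter. Bmp4, a growth factor of newly committed cells, was higher (0.93 ± 0.17, adjusted p = 0.0102). Zfp488, an oligodendrocyte zinc finger factor, had 1.64 ± 0.32 (adjusted p = 0.0116) at its brighter probe and 0.29 at the other. Bcas1, a gene of early myelinating cells, was lower (-1.32 ± 0.17, adjusted p = 0.00371), as was Lims2, an adhesion adaptor (-2.92 ± 0.14, adjusted p = 0.000473).

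Of 14 myelin genes, 11 were called lower and 1 higher at P5 than in adults, with a median of -1.49. At P10 against adult 10 were called lower, against 9.04% of all probes, and none higher. Mal, a myelin proteolipid, was lower at P5 (-3.49 ± 0.14, adjusted p = 0.000461). Mbp, myelin basic protein, was at -2.45 ± 0.29 (adjusted p = 0.00306) at its brightest probe, while its 3 probes ran from -2.45 to -0.12. The myelin gene called higher was Ermn, at 2.88 ± 0.53 (adjusted p = 0.0101), and its second probe gave -0.38. The summed level of the 14 brightest probes did not follow the count. It was 59600 to 95600 at P5, 16100 to 48600 at P10 and 66000 to 71900 in adults. This sum includes the Ermn probe at 2.88, the only one of the 14 with a positive P5/adult value. The part of Ermn in the summed level was not tested. Mog, a surface protein of mature myelin, had -0.21 (adjusted p = 0.135).

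**Figure D3:**
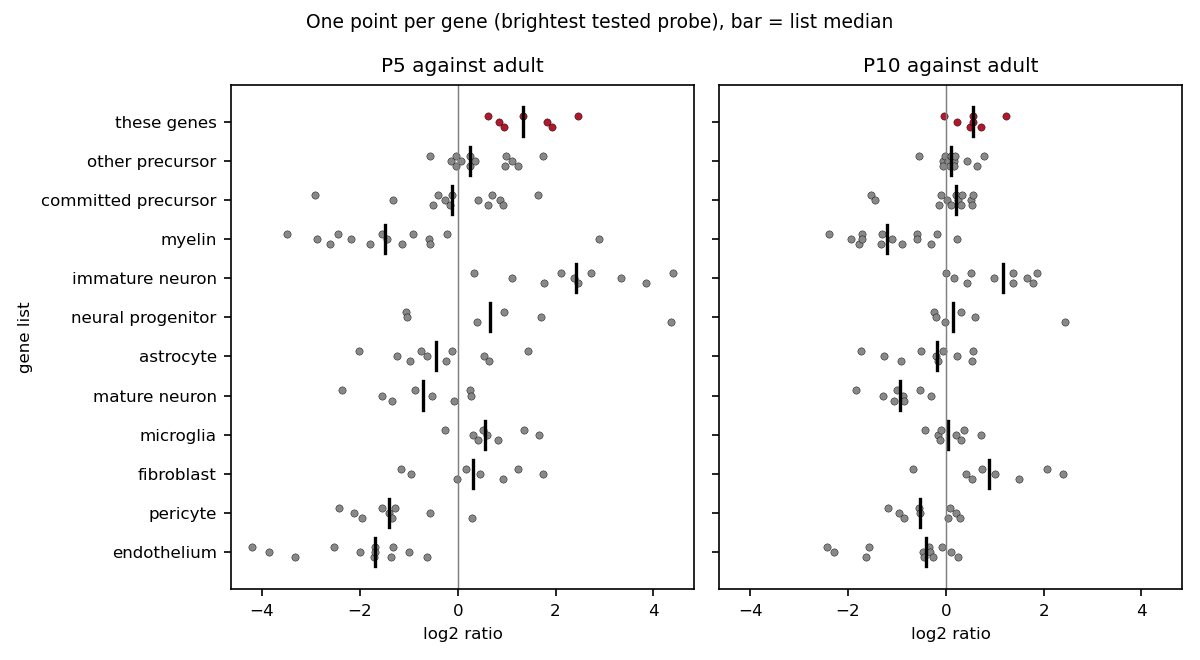
Log2 ratio to adult (horizontal axis) at P5 (left) and P10 (right) for each measured gene of 12 lists (vertical axis), with a bar at each list's median; points of genes dim at an age understate their difference. The 7 tested precursor genes, in red, lie at 0.61 or above at P5, and the myelin list has a median of -1.49 there.

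Markers of other cells shifted with age beside these genes. All 12 endothelial markers were measured, and at their brightest probes all 12 were lower at P5 than in adults, with a median of -1.70. The 2 probes of Kdr ran from -0.99 to 0.03. The summed level of the endothelial markers was 67800 to 99800 at P5, 177000 to 251000 at P10 and 464000 to 753000 in adults. Immature neuron markers went the other way, with 9 of 10 higher at P5, a median of 2.42, and summed levels of 26700 to 28600 at P5, 8490 to 11400 at P10 and 3310 to 4350 in adults. For the 7 precursor genes the summed level was 31700 to 37700 at P5, 12300 to 15600 at P10 and 7310 to 9410 in adults. Most of this sum at P5 was Ptprz1, with log2 levels of 14.38 to 14.81, beside 11.80 to 12.12 for Gpr17, the next brightest. Cell cycle genes were higher at both young ages, 6 of 6 at P5 (median 2.62) and 6 of 6 at P10 (median 3.26), and 4 of the 6 were called lower at P5 than at P10, against 18.7% of all probes.

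Astrocyte markers had 3 higher and 4 lower of 10 (median -0.44) at P5, with summed levels of 35300 to 59800 at P5 and 65900 to 82000 in adults. Over all ages, 2 channel values of the astrocyte markers were missing and were left out of the sums. Neural progenitor markers had 4 higher and 2 lower of 6 (median 0.67), with summed levels of 56500 to 64900 at P5 and 33000 to 36000 in adults. Fibroblast markers had 3 higher and 2 lower of 8 at P5 (median 0.32, or -0.26 under median centring), and 4 higher with none lower at P10 (median 0.88). Microglial markers had 2 higher and none lower of 8 at P5, with medians of -0.04 and 1.02 in the replicates. Their summed levels were 73800 to 97700 at P5 and 29800 to 45300 in adults. The highest microglial value was that of Itgam (1.66, with 2.10 and 1.22 in the replicates), whose 3 probes ran from 0 to 1.66. The part of Itgam in the summed levels was not tested. Mature neuron markers had 5 lower of 8 (median -0.71). The part of any of these cells in the values of the 8 genes was not tested.

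**Figure D4:**
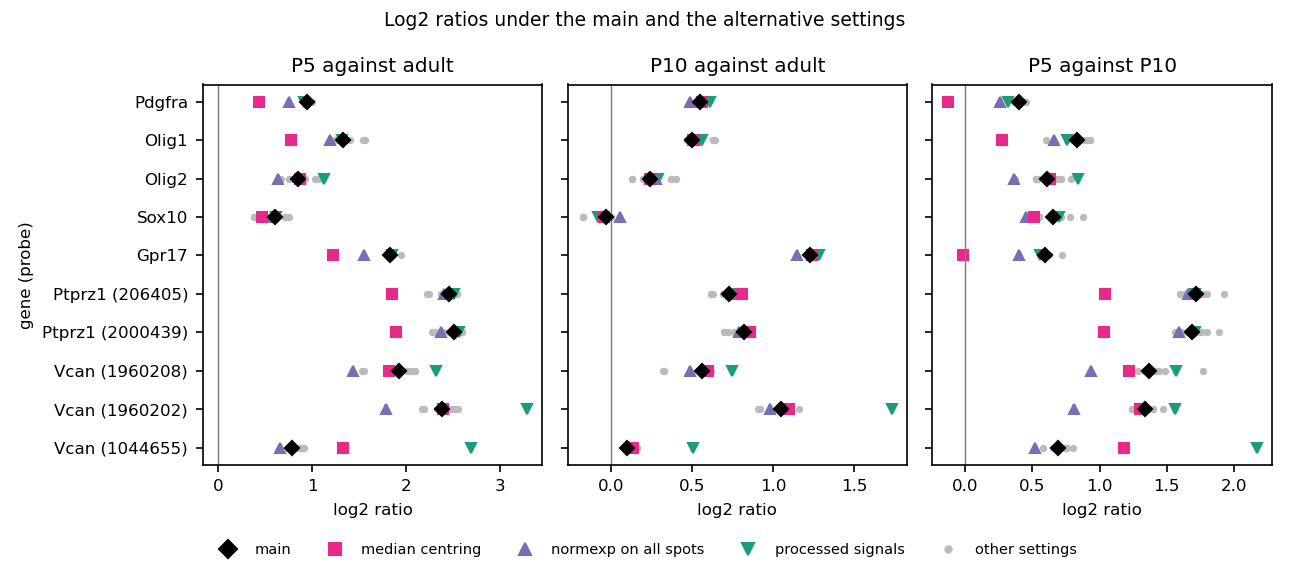
Log2 ratio (horizontal axis) of the 10 tested probes (vertical axis) in 3 comparisons under the main setting (black) and the alternatives, with 3 of them in colour. Median centring gives lower P5/P10 values for Pdgfra (-0.13) and Gpr17 (-0.02), both below 0, and the processed signals give higher P5/adult values for the dimmer Vcan probes, up to 3.29.

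The size of the ratios varied with the setting, as the plot of values by setting shows. Across the alternatives that could be tested, the P5/adult log2 ratio ran from 1.85 to 2.55 for the first Ptprz1 probe, from 1.22 to 1.95 for Gpr17, from 0.78 to 1.56 for Olig1 and from 0.64 to 1.13 for Olig2, and each of these remained called throughout. The range was 0.43 to 1 for Pdgfra, called in 17 of 18 alternatives, and 0.38 to 0.75 for Sox10, called in 14 of 18. For Vcan it was 1.44 to 2.32 at A_55_P1960208 and 1.79 to 3.29 at A_55_P1960202, called throughout. At P10 against adult, Gpr17 was called in 16 of 18 alternatives, the first Ptprz1 probe in 13 of 18, Pdgfra in 10 of 18 and the probe A_55_P1960202 of Vcan in 16 of 17. With background correction fitted on all spots none of the 10 probes was called, and without a replicate block 8 were, with Olig1, Olig2 and the probe A_55_P1960208 of Vcan added. The share of all probes called under each setting is not given here. These counts therefore do not tell a change in these genes from a change in calling over the whole array. Between P5 and P10, the first Ptprz1 probe was called in 18 of 18, Olig2 in 16, Sox10 in 14 and Olig1 in 13 of 18.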

How the data were processed

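Per the file headers, the deposited Agilent Feature Extraction output (version 10.5.1.1; the submitters' processing notes name 12.6) holds median signals, local backgrounds and processed signals as intensity on a linear scale, and a log10 ratio of processed Cy5 over Cy3 that was not used for results. Ages, replicates and dyes were taken from the labels. In R 4.3.3 with limma 3.58.1, median signals were background-corrected by normexp (offset 50). Spots more than 100 below their recorded background, 4 on 1 array and 7 on another, took the median background of their array while the correction was fitted and were removed afterwards. Loess (span 0.3) was applied within arrays, with control and outlier spots at weight 0, and spots of a probe were averaged. Of 39429 probes, 27190 passed the filter on dim probes given in the report, of which 81 lacked too many spots to be fitted. Accessions were named through the RefSeq table (GRCm38.p6), and 27427 probes matched; the probe design names another build, so no probe coordinates are given.

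The 4 ratios of a slide were reduced by least squares to P5-adult, P10-adult and dye differences, so each replicate entered once per age; limma was run with age and replicate terms (2 residual and 3.05 prior degrees of freedom), with Benjamini-Hochberg adjustment over 27109 probes. Slide, scan and replicate coincide, and each slide holds every age, so the replicate is a block and its values are the values within a batch. Across all probes tested, the replicates' log2 ratios correlated at 0.9 for P5/adult, 0.814 for P10/adult and 0.796 for P5/P10, which are correlations over probes and not over samples. Lists used each gene's brightest tested probe. The text names all 8 genes, and from each other non-marker list the 2 highest and the 2 lowest P5/adult ratios plus 10 genes chosen for their known role; 1 gene that this rule names is not reported here. Where an age was dim on every channel, the fold is a bound from the lowest signal well above background, per channel after loess and Aquantile, and open to dye bias because P5 was always Cy5. The scripts were tested on simulated data. The genes and lists were chosen with earlier results of these data known.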

Additional observations from a re-analysis of the deposited data

How the results depend on the processing

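In P10 against adult, the 5 probes called higher became 0 with normexp fitted on all spots, 1 under median centring, 3 of 7 with 1 probe per gene, 8 without the replicate block, and 3 without the 2 arrays with faulty backgrounds, an alternative chosen after seeing the data; leaving out 1 array at a time gave 2 to 6, with 2 without the P10/adult array of replicate 1 and 3 without its dye exchange. In P5 against P10 the 9 of 10 probes, the dim Vcan probe included, became 1 with normexp on all spots. The 2 probes below the midpoint at P10 became 0 with normexp on all spots, with processed signals, under median centring and without the 2 arrays with faulty backgrounds, 1 with 1 probe per gene, and 5, with 1 other above the midpoint, without the replicate block; leaving out 1 array gave 0 to 2. The direction turned for Sox10 at P10 against adult (0.06 with normexp on all spots, 0 without the P5/adult or the P5/P10 array of replicate 1, and -0.17 to 0 over the arrays left out), for the probe A_55_P1960202 of Vcan against the midpoint (0.09 with normexp on all spots, 0.08 with processed signals), for Olig1 against the midpoint (0.12 under median centring, 0.02 without the P10/adult array of replicate 1, and -0.32 to 0.02 over the replicates and arrays left out), and, under median centring, for P5 against P10 in Gpr17 (-0.02) and Pdgfra (-0.13). Median centring moved the median of all probes to -0.09 in P5 against adult and -0.12 in P5 against P10. The causes were not tested. In P5 against adult, 8 to 10 of the 10 probes were called in every alternative with all 10 tested, and 9 under the stricter filter. None of the counts in this section stands beside the share of all probes called in the same setting. A loss or gain of calls here may therefore be one over the whole array and is not a result about these genes.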
